A study of Caenorhabditis elegans with 6 samples.

Results

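The fbxb genes of Caenorhabditis elegans encode F-box B proteins. They were taken as every row of the deposited array table whose 1 annotated gene symbol starts with fbxb- and a number, which gave 108 genes of 25478 with 1 symbol, each measured by 1 transcript cluster (the set of probes that stands for 1 transcribed locus). RefSeq (assembly WBcel235) lists 113 fbxb genes. The other 5, fbxb-4, fbxb-27, fbxb-53, fbxb-77 and fbxb-94, were not analysed here. Of the 108, 102 are protein-coding and 6 are pseudogenes in that annotation. The family was selected on its differences in signal between exposed and unexposed animals on these same arrays, so its group difference is given below as a description, without a test.

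Total RNA of whole animals came from 6 samples of the wild-type strain N2, all hermaphrodites grown in synchrony for 48 h, with E. coli OP50 as food, from hatching to the last larval stage, L4. For the 3 C-SPION samples a further 24 h at 20 °C followed in 50% M9, a salt buffer, that held 500 µg/mL of C-SPIONs, superparamagnetic particles of iron oxide with a coat of citrate. The 3 control samples had the same 24 h in 50% M9 without particles. No sample with citrate alone is among the 6. Separate cultures within a group are not stated. Fewer cells of a type and less RNA per cell cannot be told apart in such RNA.

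An F-box protein is the substrate-binding part of an SCF ubiquitin ligase. Its F-box, a short motif usually near the start of the protein, holds a Skp1-type adaptor, which sits on the cullin CUL-1 with the RING protein RBX-1, while the rest of the F-box protein picks the target that is to be tagged with ubiquitin and often destroyed by the proteasome. Nematode genomes carry far more F-box genes than most animals. They fall into families named fbxa, fbxb and fbxc, and proteins of the fbxb family join the F-box to a second domain called F-box associated. The targets of most members are not known, and no role is assigned to an individual fbxb gene here.

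Values are log2 signals, so a difference of 1 is a factor of 2, and all differences are C-SPION minus control. By group means, most fbxb genes stood higher in animals held with C-SPIONs, though the arrays of the groups overlapped. The difference was positive in 93 of 108 members and negative in 15, where 53.3% of all 26192 tested clusters were positive. Its median over the members was 0.50, a factor of 1.41, against 0.04 over all tested clusters. The middle of the family lay between 0.19 and 0.83 (quartiles), and the extremes were -0.59 and 1.58. In 14 members the difference exceeded 1, and in 0 was it below -1. A fit of limma across all 26192 clusters called 0 fbxb genes and 0% of all clusters at an adjusted p under 0.05, and its smallest adjusted p was 0.262 among fbxb genes and 0.201 overall. At an unadjusted p under 0.05 the fit had 23 fbxb genes higher, with 5.22% of all clusters, and 1 lower, with 7.3% of all clusters. These counts come from the contrast on which the family was selected and support nothing by themselves.

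The 2 groups overlapped for most members. All 3 C-SPION arrays lay above all 3 control arrays in 19 members, with 9.4% of all clusters, and below them in 1, with 9.24% of all clusters, while the remaining 88 overlapped. The overlap followed particular arrays. The median signal of the 108 genes was 4.49, 4.92 and 4.92 in C-SPION 1, 2 and 3, and 4.11, 3.90 and 4.72 in control 1, 2 and 3. Control 3 thus stood above C-SPION 1 and closer to C-SPION 2 and 3 than to the other controls. Relative to each gene's control mean, the medians were 0.13, 0.78 and 0.67 in C-SPION 1, 2 and 3, against -0.12, -0.31 and 0.39 in control 1, 2 and 3. No such shift was seen over all tested clusters, whose medians on this scale ran from -0.01 to 0.04 in the C-SPION arrays and from -0.01 to 0.01 in the control arrays.

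**Figure D1:**
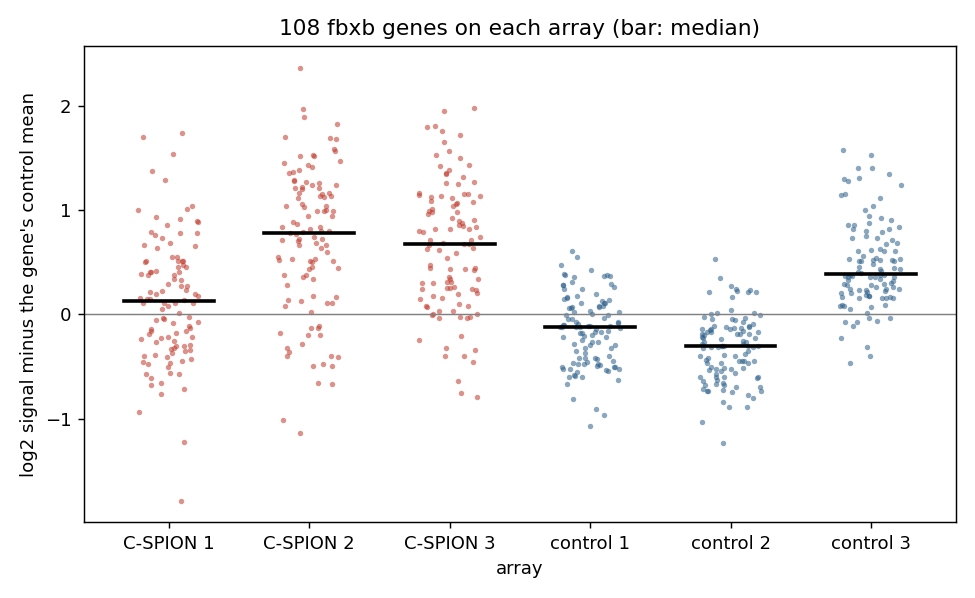
Each point is 1 of the 108 fbxb genes on 1 array, as its log2 signal minus its mean over the 3 control arrays, and each bar is the median of the array. The medians of C-SPION 2 and 3, 0.78 and 0.67, lie highest, control 3 at 0.39 lies above C-SPION 1 at 0.13, and control 1 and control 2 lie lowest.

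Parts of this array order recurred in many members, though not in all. C-SPION 2 was the highest of the 6 arrays for 46 members and C-SPION 3 for 30, whereas control 2 was the lowest for 50, control 1 for 24 and C-SPION 1 for 22. Control 3 was the highest array for 22 members. Shares over all clusters for these places among 6 arrays are not given here. Among the controls alone, control 3 was highest for 85 of the 108 members, or 78.7%, where it was highest for 36.5% of all tested clusters. Among the C-SPION arrays, C-SPION 1 was lowest for 76 members, or 70.4%, against 42.7% of all clusters. Both C-SPION 2 and C-SPION 3 exceeded both control 1 and control 2 for 77 members, or 71.3%, against 29.1% of all clusters. This count takes the arrays that the medians above set farthest apart, in a family selected on the group contrast, so it supports nothing by itself. Control 3, on the other hand, exceeded C-SPION 1 for 75 members, or 69.4%, against 49.9% of all clusters. The members' signals were also more spread within a group than those of an average cluster, with a median SD of 0.53 over the C-SPION arrays and 0.47 over the control arrays, against 0.30 and 0.30 over all tested clusters in the same order.

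Leaving out 1 array moved these values. Without control 3, 98 members were higher, 48 lay above both remaining controls in every C-SPION array, with 16% of all clusters doing so on these 5 arrays, and the median difference was 0.76. Without C-SPION 1, 93 were higher, 51 lay above all controls in both remaining C-SPION arrays, with 20.5% of all clusters, and the median was 0.72. Fewer arrays have to lie apart in these counts than in the 19 members over 6 arrays. Without control 2 the median was 0.33, the lowest over the arrays left out in turn, and 86 were higher.

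**Figure D2:**
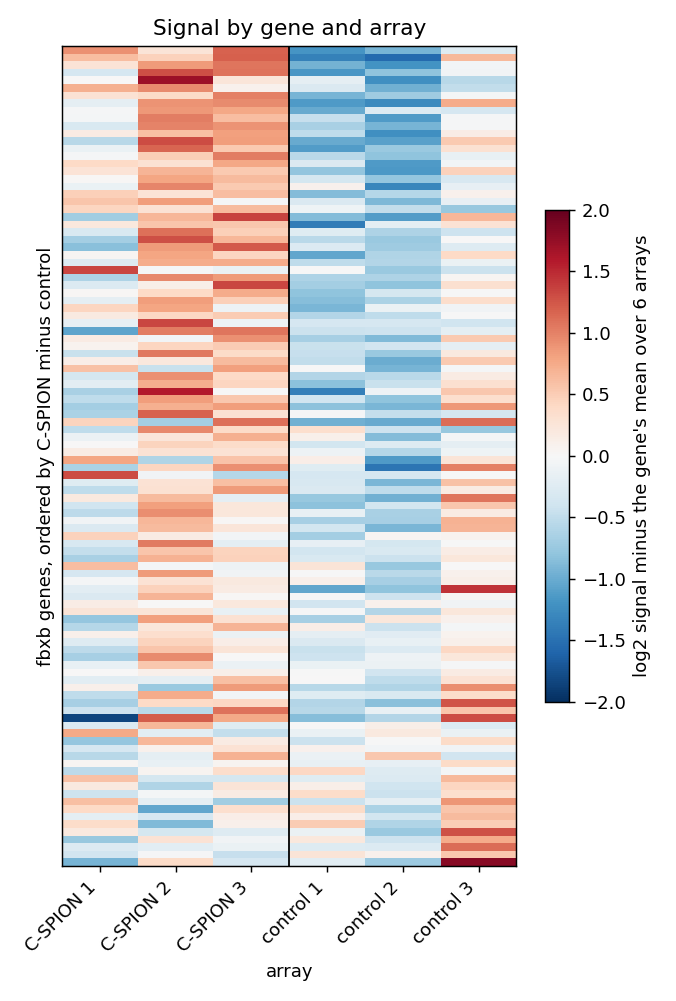
Rows are the 108 fbxb genes from the largest to the smallest C-SPION minus control difference, columns are the 6 arrays, and colour is the log2 signal minus the gene's mean over the 6 arrays (limits -2 to 2). Most rows are warm in C-SPION 2 and 3 and cool in control 1 and 2, while control 3 turns warm in the lower rows.

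The largest difference was that of fbxb-102 (cluster 18482358, chromosome II). It had log2 signals of 6.31, 5.66 and 6.58 in C-SPION 1, 2 and 3, against 4.21, 4.47 and 5.14 in control 1, 2 and 3. The groups did not overlap, with means of 6.18 ± 0.47 in C-SPION and 4.61 ± 0.48 in control arrays (SD, n = 3 each) and a difference of 1.58, or 2.98-fold. The gene fbxb-33 (chromosome II) had 5.43, 5.28 and 6.01 in the C-SPION arrays, against 3.46, 3.26 and 5.46 in the control arrays. Its difference of 1.51 was almost as large, but control 3 lay inside the C-SPION range and the control SD was 1.22, against 0.39 in the C-SPION arrays.

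On chromosome V, fbxb-57 had 5.54, 6.11 and 6.33 in C-SPION 1, 2 and 3, against 4.32, 4.06 and 5.21 in control 1, 2 and 3, a difference of 1.46 with no overlap. Its near neighbour fbxb-60 had 4.53, 4.76 and 3.90 in the C-SPION arrays and 3.53, 2.86 and 3.33 in the control arrays. That difference was 1.16, again without overlap, and here C-SPION 3 was the lowest of its group and control 3 was not the highest of the controls. Also on chromosome V, fbxb-116 had 4.87, 4.96 and 5.58 in the C-SPION arrays and 3.65, 3.86 and 4.54 in the control arrays, a difference of 1.12 without overlap.

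Some of the remaining large differences were carried by all 3 C-SPION arrays, others by C-SPION 2 and 3, and that of fbxb-19 mostly by C-SPION 2. The gene fbxb-19 had 3.19, 4.89 and 3.42 in C-SPION 1, 2 and 3, against 3.00, 1.96 and 2.62 in control 1, 2 and 3. Its groups lay apart at a difference of 1.31, although C-SPION 1 stood close above control 1. Without C-SPION 2 the difference of fbxb-19 was 0.78, and its mean over the 6 arrays, 3.18, was low for the family. In fbxb-95 the signals were 4.63, 5.53 and 5.44 in the C-SPION arrays and 3.65, 4.39 and 4.32 in the control arrays, a difference of 1.08 without overlap. In fbxb-42, by contrast, C-SPION 1 at 4.45 lay below control 3 at 4.72, with C-SPION 2 and 3 at 6.08 and 5.87 and control 1 and 2 at 3.62 and 3.99. The same exchange of C-SPION 1 and control 3 held for fbxb-75, with 6.73, 7.80 and 7.85 in the C-SPION arrays against 5.77, 5.63 and 7.65 in the control arrays, and, narrowly, for fbxb-1, with 5.89, 6.95 and 6.55 against 5.47, 4.79 and 5.91. Differences of these 3 genes were 1.36, 1.11 and 1.07. Of the 10 largest differences, 6 lay apart by group, with 9.4% of all clusters. Genes picked for a large difference lie apart more readily, so this count supports nothing by itself. In 7 of the 10, control 3 was the highest control, where it was so for 78.7% of all members.

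**Figure D3:**
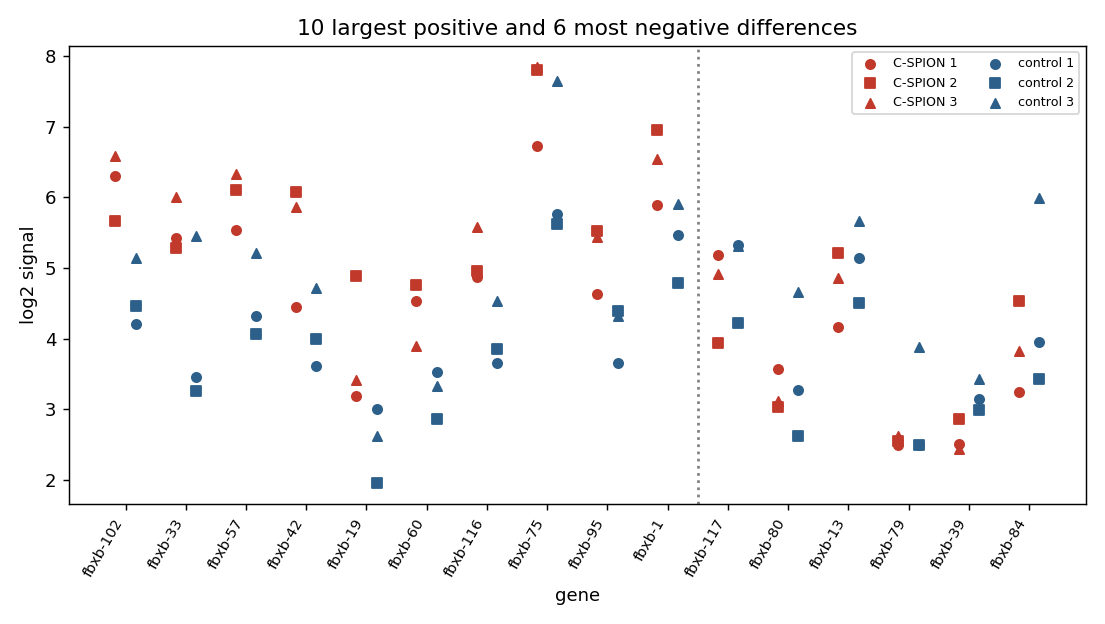
Log2 signals of the 10 fbxb genes with the largest positive and the 6 with the most negative difference, with C-SPION arrays in red on the left of each gene, control arrays in blue on the right and a marker shape for each replicate number. The red points of fbxb-102, fbxb-57 and fbxb-60 lie clear of the blue ones, and right of the dotted line the control 3 triangle is the highest point in 5 of 6 genes.

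Several of the most negative differences rested on control 3. The gene fbxb-84 (chromosome III) had 3.24, 4.54 and 3.82 in C-SPION 1, 2 and 3, against 3.96, 3.43 and 5.99 in control 1, 2 and 3. Its difference of -0.59 turned to 0.17 without control 3. The gene fbxb-79 had 2.49, 2.55 and 2.63 in the C-SPION arrays, against 2.5, 2.49 and 3.88 in the control arrays, so that only control 3 stood out. The pseudogene fbxb-80 likewise had 3.57, 3.03 and 3.12 in the C-SPION arrays, against 3.27, 2.63 and 4.66 in the control arrays. Without control 3 the differences of fbxb-79 and fbxb-80, which were -0.40 and -0.28, became 0.062 and 0.29.

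The 1 member whose C-SPION arrays all lay below the controls was fbxb-39 (chromosome II). It had 2.51, 2.87 and 2.44 in C-SPION 1, 2 and 3, against 3.15, 2.99 and 3.43 in control 1, 2 and 3, a difference of -0.58. Its mean over the 6 arrays, 2.90, was among the low signals of the family. For fbxb-13 the signals were 4.17, 5.22 and 4.86 in the C-SPION arrays and 5.14, 4.51 and 5.67 in the control arrays. For fbxb-117 they were 5.19, 3.94 and 4.92 in the C-SPION arrays and 5.33, 4.22 and 5.31 in the control arrays. Groups of both genes overlapped, at -0.36 and -0.27, and fbxb-117 stood at 0.10 without C-SPION 2. The other 9 members with a negative difference lay between -0.27 and -0.03. The 6 most negative members all had a mean signal under 5. Most of the family did too, as 33 of the 108 members had a mean of at least 5. Of those 33, however, 32 were higher in the C-SPION arrays, so negative differences were found almost only at a mean under 5.

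The 12 members with a mean signal of at least 6 were all higher in the C-SPION arrays, and in 2 of them the groups lay apart, with 14.3% of all clusters at that signal. Signals of different probe sets do not rank transcript amounts, so brightness serves here only to find members measured farther from the low end. The mean over 6 arrays ran from 2.59 to 8.63, with a median of 4.59. The brightest, fbxb-66 (chromosome I), had 8.0, 9.05 and 9.54 in C-SPION 1, 2 and 3, against 8.38, 7.16 and 9.63 in control 1, 2 and 3. Its groups overlapped almost fully at a difference of 0.47, which became -0.14 without control 2. The next, fbxb-26 (chromosome II), had 8.52, 8.96 and 9.18 in the C-SPION arrays, against 7.86, 7.14 and 8.51 in the control arrays, and was the only 1 of the 8 brightest whose groups lay apart, with control 3 just below C-SPION 1 and a difference of 1.05.

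The groups of the remaining members among the 8 brightest overlapped. The gene fbxb-15 had 7.40, 8.41 and 8.06 in the C-SPION arrays and 6.73, 6.95 and 7.93 in the control arrays. The gene fbxb-24 had 6.11, 8.19 and 8.24 in the C-SPION arrays and 6.74, 6.75 and 6.98 in the control arrays, so its controls lay close together and C-SPION 1 lay below them. Differences for this pair were 0.75 and 0.69. In fbxb-43 the signals were 6.56, 7.86 and 7.77 in the C-SPION arrays and 6.22, 5.94 and 6.85 in the control arrays, a difference of 1.06, and in fbxb-31 they were 6.86, 7.27 and 7.11 against 5.81, 5.45 and 7.05, a difference of 0.98. The gene fbxb-3 had 5.88, 7.25 and 7.93 in the C-SPION arrays and 5.71, 5.46 and 7.25 in the control arrays, at 0.88.

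**Figure D4:**
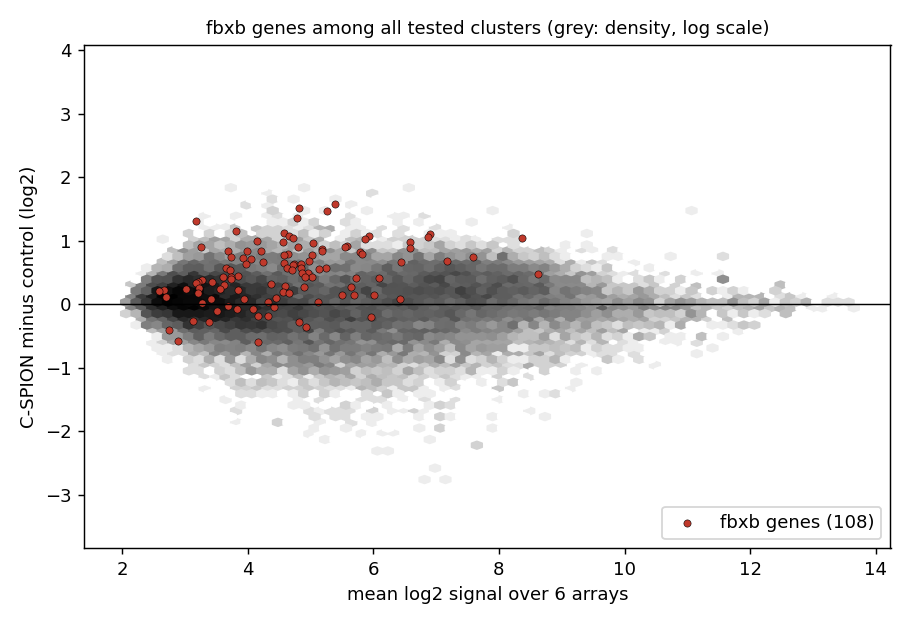
The mean log2 signal over the 6 arrays (horizontal) against C-SPION minus control (vertical), with the 108 fbxb genes in red over the density of all 26192 tested clusters in grey. Most red points lie above 0 at every signal level, including the 12 genes with a mean of at least 6.

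The positive differences were not limited to dim rows. With a mean signal under 4, 30 of 37 members were higher with a median of 0.30, and between 4 and 5, 31 of 38 with 0.58. Between 5 and 6, 20 of 21 were higher with a median of 0.79, and from 6 upwards 12 of 12 with 0.72. Over all tested clusters the medians in the same 4 classes were 0.06, -0.03, -0.09 and 0.06.

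Pseudogene differences were positive in 3 of 6, with a median of 0.10, and coding ones in 90 of 102, with a median of 0.54. Relative to the control mean, the pseudogene medians were 0.28, -0.15 and -0.15 in C-SPION 1, 2 and 3 and -0.21, -0.23 and 0.32 in control 1, 2 and 3. The coding medians on this scale were 0.13, 0.80 and 0.70 in the C-SPION arrays and -0.12, -0.31 and 0.40 in the control arrays. By these medians the controls stood in the same order for both kinds, with control 2 lowest, narrowly so for the pseudogenes, and control 3 highest. The median of C-SPION 1 was the highest of the C-SPION arrays for the 6 pseudogenes and the lowest for the coding genes. Single pseudogenes differed: C-SPION 1 was highest of its group in fbxb-86, fbxb-32 and fbxb-80, and C-SPION 3 in fbxb-28 and fbxb-36. In fbxb-12 C-SPION 1 was lowest, at 2.78 against 4.38 and 3.87. The difference between the kinds was not tested.

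Members were spread over all 6 chromosomes, with 61 of the 108 on chromosome II in the RefSeq annotation. Of these, 52 were higher, with a median difference of 0.57. On chromosome V, 14 of 16 were higher with a median of 0.62, on chromosome I, 10 of 10 with 0.39, on chromosome III, 8 of 9 with 0.29, on chromosome IV, 6 of 9 with 0.57, and on chromosome X, 3 of 3 with 0.20. The other clusters of each chromosome had medians between -0.03 (X) and 0.09 (I), so no whole chromosome was shifted as far as its fbxb genes.

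Most members stand next to other members. In the RefSeq gene order, 78 of the measured genes lay in 23 runs of 2 or more, where a run allows at most 3 other genes between neighbours, and 30 stood alone. In runs 69 of 78 were higher, with a median difference of 0.60, and among the single genes 24 of 30, with 0.27. The probes of near-identical neighbours can share signal, and its part in these values was not tested. Another 24 measured genes that lie inside the runs without being fbxb genes had a median of 0.30, with 18 higher.

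The 6 longest runs, of 5 or 6 annotated genes, held 30 measured members, of which 27 were higher. The run on chromosome II with fbxb-17, fbxb-26, fbxb-25, fbxb-18 and fbxb-19 had the highest median, 0.90, and its differences ran from 0.62 in fbxb-18 to 1.31 in fbxb-19. Here 5 of 5 fbxb genes were higher, and 0 of the 2 other measured genes within the run, whose median was -0.22. On chromosome V the run from fbxb-117 to fbxb-61 had a median of 0.72 and the widest range of the 6, from -0.27 in fbxb-117 to 1.46 in fbxb-57. The 4 other measured genes inside it were all higher, with a median of 0.46.

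The run on chromosome II from fbxb-52 to fbxb-46 had 6 of 6 genes higher, with a median of 0.60, from 0.03 in fbxb-46 to 0.90 in fbxb-54, and 1 of 2 other measured genes was higher, with a median of 0.29. Another run there, with fbxb-21, fbxb-20, fbxb-16 and fbxb-15 measured, had 4 of 4 higher and a median of 0.77, from 0.22 in fbxb-16 to 0.91 in fbxb-20. The run from fbxb-107 to fbxb-111 had 3 of 5 higher, from -0.08 in fbxb-111 to 0.74 in fbxb-105. Its fbxb median was 0.43, and the 3 other measured genes inside it had a median of 0.94, with 2 higher. The run of chromosome I had 4 of 4 higher, from 0.09 in fbxb-101 to 0.99 in fbxb-100.

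The other F-box families differed in where they stood. Of 44 fbxc genes, 33 were higher, with a median of 0.35, and of 188 fbxa genes, 86 were higher, with a median of -0.04 that turned to 0.038 when each array was centred on its median. Mean signals relative to the control mean were 0.14, 0.49 and 0.54 in C-SPION 1, 2 and 3 for fbxc, against -0.01, -0.18 and 0.19 in control 1, 2 and 3. The corresponding fbxb means were 0.14, 0.70 and 0.64 in the C-SPION arrays, against -0.15, -0.33 and 0.48 in the control arrays. Both families therefore had control 3 as the highest control and C-SPION 1 as the lowest C-SPION array, with a wider spread in fbxb. In fbxa the array means ran only from -0.11 to -0.0037 in the C-SPION arrays and from -0.01 to 0.01 in the control arrays. All C-SPION arrays lay above all controls in 10 of the 44 fbxc and 11 of the 188 fbxa genes, with 9.4% of all clusters, and below them in 0 fbxc and 24 fbxa genes, with 9.24% of all clusters. Differences between families were not tested.

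Among the partners of F-box proteins, no gene passed limma's test. Skp1-type adaptors bind the F-box itself, and 13 of 20 skr genes were higher, with a median of 0.24. In skr-7 the signals were 8.21, 8.55 and 8.76 in C-SPION 1, 2 and 3, against 7.28, 6.96 and 6.96 in control 1, 2 and 3, a difference of 1.44 without overlap (limma adjusted p = 0.217). In skr-13 they were 10.26, 10.92 and 11.11 in the C-SPION arrays and 9.61, 9.73 and 10.23 in the control arrays, a difference of 0.91 (limma adjusted p = 0.333), and skr-15 stood at 0.73 (limma adjusted p = 0.304). Of the 7 lower skr genes, 2 were picked out after their values were seen: skr-20 stood at -1.06 with overlapping groups (limma adjusted p = 0.429), and skr-5, with all C-SPION arrays below all controls, at -0.85 (limma adjusted p = 0.353). The adaptors skr-1, the main Skp1 of the worm, and skr-2 had -0.11 and 0.23 (limma adjusted p = 0.825 and 0.708). Relative to the control mean the 20 skr genes averaged -0.06, 0.43 and 0.38 in the C-SPION arrays, against -0.17, -0.13 and 0.30 in the control arrays. As for the fbxb genes, control 3 was the highest control and C-SPION 1 the lowest C-SPION array.

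The shared core of the ligase was measured by 16 of 18 listed genes, of which 13 were higher, with a median of 0.27. The scaffold gene cul-1 had 7.47, 8.02 and 7.86 in C-SPION 1, 2 and 3, against 7.37, 7.27 and 6.92 in control 1, 2 and 3, a difference of 0.60 (limma adjusted p = 0.380). The RING partner rbx-1 had -0.21 (limma adjusted p = 0.798). The exchange factor gene cand-1, whose product swaps Skp1 and F-box units on the cullin, stood at 0.66 (limma adjusted p = 0.344), and csn-4, of the COP9 signalosome that strips NEDD8 from cullins, at 0.67 (limma adjusted p = 0.369). In this list control 3 was the lowest control on average, at -0.16, whereas it was the highest for fbxb genes.

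Of the other cullins 4 of 5 were higher, with a median of 0.39. Among them cul-3, whose ligase uses BTB proteins in place of F-box proteins, had 7.95, 8.01 and 8.0 in the C-SPION arrays and 7.28, 7.15 and 6.90 in the control arrays, a difference of 0.88 (limma adjusted p = 0.262). The genes cul-2 and cul-4 stood at 0.55 and 0.39. Ubiquitin supply was measured by 4 of 15 listed genes and had a median of 0.09; uba-1, the activating enzyme, stood at 0.59 (limma adjusted p = 0.405), ubq-1 at 0.18 and let-70, a conjugating enzyme, at -0.11.

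F-box genes with named roles were higher in 9 of 11 cases, with a median of 0.24. The gene prom-1, needed for chromosome pairing in meiosis, stood at 0.78 (limma adjusted p = 0.388), while mfb-1 and fbxl-1 stood at -0.57 and -0.55 (limma adjusted p = 0.417 and 0.399). The intracellular pathogen response, a programme that includes F-box, skr and cullin genes, was not higher as a list. There 9 of 20 genes were higher, with a median of -0.07, and the lowest adjusted values belonged to pals-32 at -0.76, pals-25 at -0.62 and sta-1 at -1.08 (limma adjusted p = 0.295, 0.316 and 0.303). Genes that the programme induces and genes that control it were not separated in this list. Its values therefore do not measure the activity of the programme.

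Markers of the germ line and embryo moved with the fbxb genes on some arrays and not on others. Of 12 early embryo markers 12 were higher, with a median of 0.44. Their means relative to the control mean were 0.29, 0.65 and 0.69 in C-SPION 1, 2 and 3, against -0.06, -0.37 and 0.44 in control 1, 2 and 3, which is the array order of the fbxb genes in the controls. Summed as array means, the list ran from 4.85 to 5.25 in C-SPION and from 4.19 to 5.00 in control arrays. The markers of smallest p were vet-6 at 1.24, tbx-38 at 0.78 and sdz-28 at 0.79 (limma adjusted p = 0.316, 0.366 and 0.380).

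Germ line markers were higher in 22 of 22 cases, with a median of 0.74, those of smallest p being glp-1 at 0.91, cyb-3 at 0.80 and nos-3 at 0.70, and their array means ran from 7.84 to 8.20 in C-SPION and from 6.97 to 7.63 in control arrays. Control 3 was their lowest control, at -0.42 relative to the control mean, where it was the highest for fbxb. Oocyte markers were higher in 16 of 18 cases, those of smallest p being puf-3 at 1.15, rme-2 at 0.98 and mex-6 at 0.73, with array means from 8.53 to 8.87 in C-SPION and from 7.78 to 8.28 in control arrays and control 3 lowest at -0.33. Sperm markers were higher in 11 of 13 measured cases, those of smallest p being spe-11 at 1.33, nspd-10 at 1.19 and spe-43 at 0.77, with array means from 5.02 to 5.36 in C-SPION and from 4.58 to 4.84 in control arrays. Relative to the control mean they stood at 0.32, 0.59 and 0.66 in C-SPION 1, 2 and 3, against -0.12, -0.02 and 0.14 in control 1, 2 and 3, so that control 3 was the highest control and C-SPION 1 the lowest C-SPION array, as for fbxb. The part of any of these tissues in the fbxb values was not tested.

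By their array means, somatic lists did not share the fbxb order. Neuron markers were lower in 12 of 12 cases, those of smallest p being sng-1 at -1.80, snt-1 at -1.51 and ric-4 at -1.41, with array means from 6.47 to 7.09 in C-SPION and from 7.39 to 8.03 in control arrays. Muscle markers were lower in 10 of 10, those of smallest p being myo-2 at -0.75, myo-1 at -0.71 and unc-15 at -0.65, with array means from 6.89 to 7.30 in C-SPION and from 7.49 to 8.06 in control arrays. Intestine markers were lower in 6 of 9 measured cases, with a median of -0.11. Those of smallest p were ifb-2 at -0.82, act-5 at -1.01 and ifc-2 at -0.51, and the groups of act-5 and ifc-2 overlapped. Of the 3 higher intestine markers, elt-2 stood highest, at 0.32. Intestine array means ran from 7.57 to 7.86 in C-SPION and from 7.80 to 8.13 in control arrays. Hypodermis markers were higher in 6 and lower in 4 of 10, with a median of 0.20; those of smallest p were grd-10 at -1.76, col-10 at -1.74 and nhr-23 at 0.45, and the groups overlapped in each. The array means ran from 6.38 to 6.80 in C-SPION and from 6.75 to 6.95 in control arrays. Relative to the control mean, the hypodermis medians were -0.14, 0.30 and 0.14 in C-SPION 1, 2 and 3. In control 1, 2 and 3 they were -0.018, -0.035 and 0.04. By these medians, unlike the means, the order within each group was that of the fbxb genes.

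**Figure D5:**
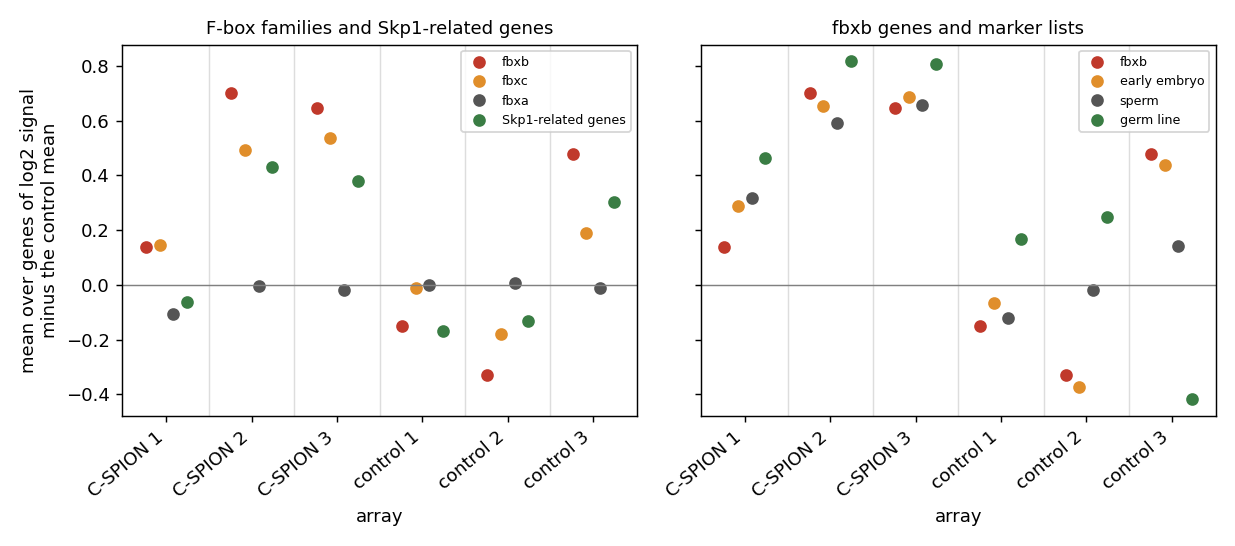
Mean over genes of the log2 signal minus the control mean (vertical) for each array (horizontal), with the F-box families and skr genes on the left and the fbxb genes beside 3 marker lists on the right. In control 3 the fbxb genes and the early embryo list stand highest, at 0.48 and 0.44, while the germ line list stands at -0.42.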

How the data were processed

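The authors deposited 1 log2 signal for each transcript cluster and 1-colour Affymetrix array. Per the submitters' processing notes these are RMA values from Affymetrix Expression Console; RMA removes background, scales the arrays to one another and combines probes, so changes in total RNA are removed. Versions, settings and genome build: not given in the sources used here. Detection calls were not used here; signal over background is therefore unknown, and precision is limited by the 6 arrays.

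Of 29317 clusters, 25546 had 1 gene symbol in the platform annotation, 646 had several and 3125 had none; 25495 matched RefSeq by gene identifier, and 0 symbols changed by that match. All 26192 clusters with a symbol entered a fit with limma 3.58.1 (R 4.3.3; lmFit, eBayes) on group alone, two-sided, adjusted after Benjamini-Hochberg at a threshold of 0.05, after the script was tested on simulated data. P-values reflect the spread between these samples, possibly technical. The highest-mean row stood for each gene.

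Named were the 8 brightest members, the 10 largest positive and 6 most negative differences, the ends of the longest runs (6, because 4 runs tied), 4 fixed ligase genes and up to 3 genes per list by smallest p. Pairs by protein identity were not used here. Members and lists were chosen with earlier results of these data known. The third control's source name repeats that of the second, and its title was used. Alternatives were a replicate block, each array left out, quantile normalisation, centring on array medians, signal filters, array weights, other eBayes options, and other row and symbol rules.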

Additional observations from a re-analysis of the deposited data

How the results depend on the processing

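The count of clusters past an adjusted p of 0.05 was 0 in the fit as reported and from 0 to 63 with 1 array left out; the 63 arose without C-SPION 1, and 0 of them were fbxb genes. At an unadjusted p under 0.05 there were 3280 clusters, from 1988 (without C-SPION 3) to 4129 (without C-SPION 1) with 1 array left out, 5108 with array weights and 2030 with a mean signal of at least 6, where fewer clusters were tested. Members lying above every control in every C-SPION array numbered from 20 (without control 2, with 14.5% of all clusters) to 51 (without C-SPION 1, with 20.5% of all clusters) with 1 array left out, when fewer arrays must lie apart. With a mean signal of at least 5, 33 members were left, of which 32 were higher and 7 lay apart, with 12.2% of all such clusters; at 6, 12 were left, of which 12 were higher and 2 lay apart, with 14.3%. The fbxa median was -0.14 and -0.16 under these filters, and the fbxc median was 0.60 under both. The cause was not tested. Median centring shifts the difference of every cluster by the same amount. With it the median over all tested clusters went from 0.04 to 0.11, and that of fbxa to 0.038. The fbxb median ran from 0.33 to 0.78 over the alternatives. Of 249 values of the 23 named members under alternatives, 5 changed sign, each with 1 array left out. The 249 include values under the replicate block, the signal filters and the row rule, which could not move for these genes. Over the arrays left out in turn, fbxb-84 ran from -1.11 to 0.17, fbxb-79 from -0.63 to 0.062 and fbxb-80 from -0.725 to 0.29, each lowest without control 2 and highest without control 3. Likewise fbxb-66 ran from -0.14 (without control 2) to 1.09 (without control 3) and fbxb-117 from -0.64 (without control 2) to 0.10 (without C-SPION 2). The replicate numbers were not taken as pairing, because none is stated. Deviations of same-numbered arrays correlated at 0.22, 0.20 and 0.01 for replicates 1, 2 and 3. Crossed values were lower for replicates 1 and 2, at -0.27 (C-SPION 2 with control 1) and -0.16 (C-SPION 1 with control 2). C-SPION 3 correlated best with control 1, at 0.02. Deviations from a group mean sum to 0 within the group, so a high matched value pushes the crossed values down. These correlations therefore cannot settle whether the arrays are paired. The signals of C-SPION 1 correlated more with control 1 (0.959) than with C-SPION 2 and 3 (0.935 and 0.949). The cause was not tested. With the replicate number as a block, 0 clusters passed and 3414 had an unadjusted p under 0.05. The fbxb median was 0.50, which the block cannot change.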
